A study of Mus musculus with 6 samples.

Results

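The 56 genes described here make ribosomes: they encode RNA polymerase I, its factors, and the nucleolar proteins that modify, fold and cut ribosomal RNA. They were taken by name as a fixed list, 56 of the 18193 genes that have a probe set of their own on the array, and each is read through the probe set with the highest mean signal over the 6 arrays. The probe sets were thus selected on signal, and the genes were listed with the differences between these same 6 arrays known, so levels, counts and medians of the list are a description only. All 56 passed the filter on low signals and are among the 12663 genes tested. In 55 of them the signal lay over the bacterial control probe sets of its array on all 6 arrays; the exception is Rrp12.

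The samples are neural stem cell lines of the mouse, dividing cells that can give rise to neurons and glia, with 1 array for each line. The labels call 3 lines FoxO null and 3 lines wild-type for FoxO, a family of forkhead transcription factors that growth factor signalling keeps out of the nucleus. They describe the lines as independent, and give no deleted FoxO gene, driver of the deletion, strain, age, brain region or passage. The 12 neural stem cell markers looked for, among them Sox2 and Nes, were over background on every array. So were 8 of 8 astrocyte, 8 of 8 oligodendrocyte lineage and 7 of 8 neuron markers, and 1 of 6 microglia, 1 of 7 endothelial or mural and 1 of 6 fibroblast markers. At or under background on every array were Aif1, Itgam and Ptprc of microglia, Pecam1 of endothelium and Dcn and Twist1 of fibroblasts.

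The FoxO signals go against the labels. Foxo1 read 77.9, 77.8 and 100.3 on the arrays labelled FoxO-null, against 20.3, 20.4 and 31.7 on those labelled wild-type. Foxo3 read 578, 667 and 856 on the arrays labelled FoxO-null, against 267, 611 and 507 on those labelled wild-type, with overlap, and Foxo4 read 178, 57.2 and 189.9 on the arrays labelled FoxO-null, against 5.56, 4.14 and 17.1 on those labelled wild-type. Of all 9 probe sets for these 3 genes, 8 had higher mean signals in the lines labelled FoxO-null, 5 of them with no overlap between the groups. Where these probe sets lie relative to a deletion is not known here. The groups are therefore named by their labels throughout, and every direction below follows those labels. Signals come from the authors' MAS5 values, which have the same trimmed mean on every array, so a difference is relative to the other transcripts of the array and would not show a change in total RNA per cell. Fewer cells making a transcript and less transcript per cell cannot be told apart in these samples.

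Ribosome production begins in the nucleolus, where RNA polymerase I copies the ribosomal DNA into 1 long precursor. Small nucleolar RNAs with box C/D proteins guide methylation of the precursor and those with box H/ACA proteins guide its pseudouridylation. The small subunit processome then folds and cuts the part that becomes the small subunit, and a separate series of factors assembles the large subunit. Dividing cells need many ribosomes, and the transcription factor Myc is known to switch on many of these genes through the E-box letters CACGTG.

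Most ribosome biogenesis transcripts had lower signals in the lines labelled FoxO-null, by small amounts, and none passed the test over all genes. Of 56 members, 51 had a negative log2 difference (FoxO-null minus wild-type), or 91.1%, where 48.2% of all genes tested were negative. The median log2 difference of the members was -0.21, a ratio of 0.863, and that of all genes tested was 0.0099. At a limma adjusted p under 0.05 over the 12663 genes, 0 members passed in either direction, against 0.0079% of genes lower, 0.0316% higher and 0.0395% in either direction. At an unadjusted limma p under 0.05, 18 members were lower, where 4.9% of all genes were, and 0 were higher, where 5.31% of all genes were. Over all genes that is 620 lower and 672 higher; with every array centred on its median it is 720 and 327, and 17 members are lower and 0 higher. The count of 18 was 11 without the array FoxO-null 1 and 9 without wild-type 1, and between 14 and 17 without any of the other 4. Of all genes, 3.27% were lower without FoxO-null 1, 4.59% without wild-type 1 and between 4.33% and 4.97% without any of the other 4. The groups did not overlap in 20 members, 19 lower (background 7.93%) and 1 higher (background 8.08%).

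**Figure D1:**
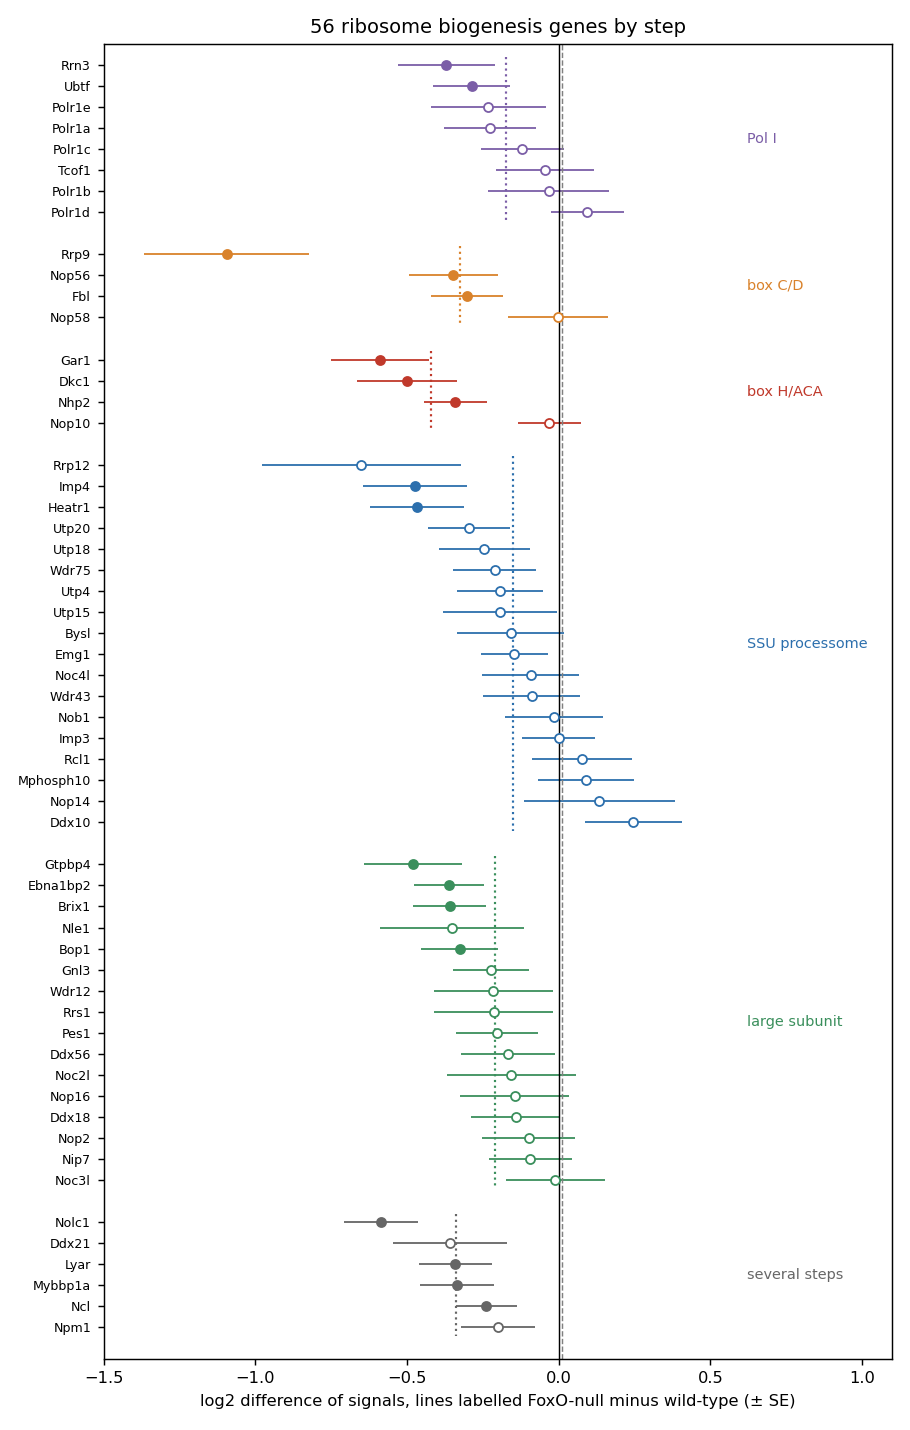
Log2 difference of each member (x axis, lines labelled FoxO-null minus wild-type, bars ± 1 standard error of the limma fit, n = 3 lines a group), ordered by step down the page. Filled points have an unadjusted limma p under 0.05, dotted lines mark the median of each step and the dashed line the median of all genes tested; 51 of 56 points lie left of 0.

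The median was negative in every step. The median log2 difference was -0.42 for the 4 box H/ACA proteins, -0.34 for the 6 nucleolar proteins that serve several steps, -0.32 for the 4 box C/D proteins, -0.21 for the 16 large subunit factors, -0.17 for the 8 RNA polymerase I genes and -0.15 for the 18 small subunit factors. All 16 large subunit factors were negative, as were all members of the box C/D, box H/ACA and several-step groups. In the small subunit group 14 of 18 were negative, and in the RNA polymerase I group 7 of 8. Differences between steps were not tested.

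Members can be followed array by array as the mean log2 deviation from each gene's own mean over the 6 arrays. For all 56 members it was -0.12, -0.10 and -0.12 on arrays 1 to 3 labelled FoxO-null, against 0.19, 0.047 and 0.11 on arrays 1 to 3 labelled wild-type. The 3 arrays labelled FoxO-null lay close together, with an SD of 0.016, and those labelled wild-type were spread with an SD of 0.070, wild-type 1 being the highest. For the box H/ACA proteins the deviations were -0.19, -0.049 and -0.31 on arrays 1 to 3 labelled FoxO-null, against 0.27, 0.16 and 0.11 on arrays 1 to 3 labelled wild-type. For the large subunit factors they were -0.09, -0.10 and -0.14 on arrays 1 to 3 labelled FoxO-null, against 0.24, 0.056 and 0.042 on arrays 1 to 3 labelled wild-type. In each of the 6 steps all 3 arrays labelled FoxO-null lay under all 3 labelled wild-type. The gap was narrow for the small subunit factors, where the highest array labelled FoxO-null stood at -0.041 and the lowest labelled wild-type at -0.019.

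**Figure D2:**
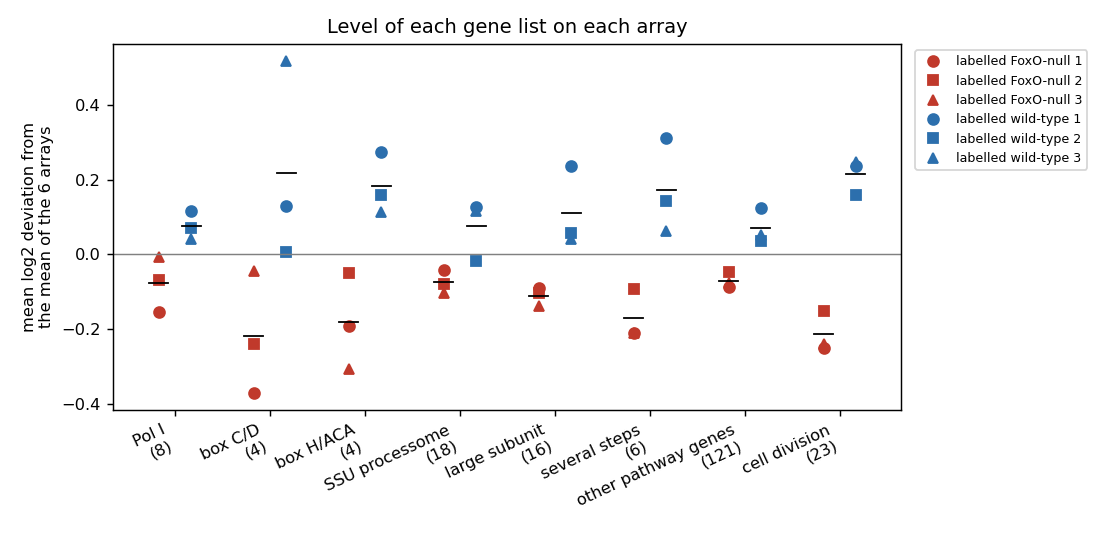
Mean log2 deviation from the mean of the 6 arrays (y axis) for the genes of each list (x axis, number of genes in brackets), 1 point per array, with horizontal bars at group means. In each list the arrays labelled FoxO-null lie under those labelled wild-type, and the box C/D value of wild-type 3 stands highest at 0.52.

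The smallest p among the members was that of Nolc1, a phosphoprotein that accompanies both kinds of small nucleolar RNP and shuttles between nucleolus and cytoplasm. Its signal was 268, 256 and 242 on the arrays labelled FoxO-null, against 413, 391 and 355 on those labelled wild-type. Every line labelled FoxO-null was below every line labelled wild-type, with means of 255 ± 13.4 in the lines labelled FoxO-null and 386 ± 29.1 in those labelled wild-type (SD, n = 3 each). The log2 difference was -0.59 ± 0.12, with a limma adjusted p of 0.137 over all genes, and it stayed between -0.64 and -0.54 when each array was left out. Its other 2 probe sets gave -0.33 and -0.17.

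Short stretches of promoter show what some of these genes carry just upstream of their start sites. Promoter windows (250 bases before to 50 after a start, RefSeq, GRCm38.p6) were read for 50 members, in 58 windows; Bop1, Fbl, Npm1, Rrp12, Rrs1 and Tcof1 are not among them. The E-box CACGTG, which reads the same on both strands, was in 10 of the 58 windows, or 17.2%, against 9.63% of the windows of all genes tested and 7.15% of all windows in the table. The ETS factor motif CCGGAAG, on either strand, was in 19 windows or 32.8%, against 16.2% and 8.86%. The forkhead motif GTAAACA, on either strand, was in 0 of the 58 windows (2.77% and 3.65% in the same 2 backgrounds) and the palindromic NRF1 motif in 0 (1.9% and 0.971%). In the windows of the other genes of the pathway, described below, the shares were 19.8% (E-box), 41.4% (ETS), 1.72% (forkhead) and 3.45% (NRF1). No E-box match in the members overlapped an ETS match. These are matches of letters and not sites shown to be bound, and no match says only that the letters are not in this window.

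The 4 members with an E-box upstream of the start are printed as examples of this match, 5′ to 3′ along the gene with the E-box in capitals. In the other 6 the letters begin after the start. Rrn3, which has a second E-box further upstream, serves RNA polymerase I, Imp4 and Utp18 the small subunit and Nop2 the large subunit.
Rrn3, chr16:13780621-13780686, plus strand: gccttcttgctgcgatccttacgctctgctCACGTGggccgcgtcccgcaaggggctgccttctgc
Imp4, chr1:34439678-34439743, plus strand: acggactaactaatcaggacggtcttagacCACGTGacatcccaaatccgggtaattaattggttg
Utp18, chr11:93885767-93885816, minus strand: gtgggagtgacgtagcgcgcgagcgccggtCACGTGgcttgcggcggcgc
Nop2, chr6:125131793-125131858, plus strand: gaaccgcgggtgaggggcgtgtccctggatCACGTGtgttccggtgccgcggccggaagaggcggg

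The next 5 stretches belong to those of the 12 members of smallest p that carry the ETS letters wholly upstream of the start, printed because this motif is the commonest of the 4 in the members, with CCGGAAG or its reverse complement in capitals. Ebna1bp2, also among these 12, is not printed because its ETS matches span the start or lie after it.
Nolc1, chr19:46075803-46075846, plus strand: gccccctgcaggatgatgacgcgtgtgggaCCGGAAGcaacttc
Gar1, chr3:129831403-129831469, minus strand: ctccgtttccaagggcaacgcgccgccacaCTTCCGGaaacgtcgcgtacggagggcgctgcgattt
Nhp2, chr11:51619720-51619772, plus strand: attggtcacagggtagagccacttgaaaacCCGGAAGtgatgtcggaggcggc
Heatr1, chr13:12395329-12395374, plus strand: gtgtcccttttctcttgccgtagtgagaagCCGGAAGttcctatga
Brix1, chr15:10485983-10486049, minus strand: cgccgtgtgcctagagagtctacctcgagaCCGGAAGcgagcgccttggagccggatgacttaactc

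Members with an E-box in their window had a median log2 difference of -0.27, with 10 of 10 negative and 3 of 10 lower at an unadjusted limma p under 0.05. Those with a window and no E-box had a median of -0.18, with 35 of 40 negative and 13 of 40 lower at that p. Over all genes tested 48.2% were negative and 4.9% were lower at that p. No test was made of this split. None of the 7 members in the box C/D and box H/ACA groups with a window held an E-box.

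Among the RNA polymerase I genes, 7 of 8 were negative. By the chosen probe sets the difference was largest in Rrn3 and Ubtf, which bring the enzyme to the ribosomal DNA. Rrn3, which links the polymerase to the promoter-bound selectivity factor, read 174, 203 and 157 on the arrays labelled FoxO-null, against 263, 241 and 193 on those labelled wild-type. The lowest line labelled wild-type reached into the range of those labelled FoxO-null, and the log2 difference was -0.37 ± 0.16 (limma adjusted p 0.457, unadjusted 0.0406). Ubtf, the HMG-box protein that coats active ribosomal genes, read 327, 359 and 281 on the arrays labelled FoxO-null, against 403, 374 and 400.3 on those labelled wild-type. Its groups did not overlap, at -0.29 ± 0.13 (limma adjusted p 0.476, unadjusted 0.0448).

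By the chosen probe sets, the 5 subunits of the enzyme lay between -0.23 and 0.094 on the log2 scale. Polr1a, the largest subunit, read 119, 122 and 137 on the arrays labelled FoxO-null, against 137, 157 and 151 on those labelled wild-type, with overlap between groups and a difference of -0.23 ± 0.15. Of its weaker probe sets over background, that at -0.52 ± 0.20 had groups that did not overlap and that at -0.28 ± 0.23 overlapped. Polr1d, a subunit shared with RNA polymerase III, read 1146, 1271 and 1319 on the arrays labelled FoxO-null, against 1085, 1345 and 1081 on those labelled wild-type and was the 1 positive member of this step, at 0.094 ± 0.12. Of its 4 probe sets, 3 were positive and 1, at -0.16, was negative. Polr1c, also shared with RNA polymerase III, was at -0.12, the second-largest subunit Polr1b at -0.033, and Tcof1, the treacle protein of ribosomal DNA transcription, at -0.044. Polr1e, a subunit of the enzyme's initiation module, was at -0.23 ± 0.19 with groups that did not overlap. Its second probe set differed by -0.76 ± 0.26.

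Among the box C/D proteins, Rrp9 had the largest log2 difference of all 56 members. Rrp9 is a WD-repeat protein that belongs to the U3 small nucleolar RNP and so also to the small subunit processome. It read 39.5, 53.8 and 73.6 on the arrays labelled FoxO-null, against 97.5, 105 and 177 on those labelled wild-type, with means of 55.6 ± 17.1 in the lines labelled FoxO-null and 127 ± 44.0 in those labelled wild-type (SD, n = 3 each). The groups did not overlap, and the spread within each was wide. The log2 difference was -1.09 ± 0.27 (limma adjusted p 0.204), and it lay between -1.30 and -0.84 when each array was left out.

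Fibrillarin, the methyltransferase encoded by Fbl, read 622, 706 and 734 on the arrays labelled FoxO-null, against 821, 783 and 945 on those labelled wild-type. No line labelled FoxO-null reached the lines labelled wild-type, and the log2 difference was -0.30 ± 0.12 (limma adjusted p 0.412). Its second probe set read 575, 659.9 and 623 on the arrays labelled FoxO-null, against 781, 773 and 803 on those labelled wild-type, at -0.34 ± 0.11. Of the paired core proteins of the same particle, Nop56 read 249, 267 and 292 on the arrays labelled FoxO-null, against 375, 282 and 383 on those labelled wild-type, with slightly overlapping groups and a difference of -0.35 ± 0.15 (limma adjusted p 0.448). The second Nop56 probe set gave -0.22 ± 0.12 with groups that did not overlap. Nop58 read 284, 257 and 293 on the arrays labelled FoxO-null, against 254, 233 and 361 on those labelled wild-type, and its difference was -0.0015 ± 0.17. Wild-type 3 held the highest Nop58 signal and wild-type 2 the lowest, so the groups overlapped fully.

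Of the 4 box H/ACA proteins, which also hold the telomerase RNA, 3 had lower signals in the lines labelled FoxO-null without overlap. Gar1 read 279, 323 and 218 on the arrays labelled FoxO-null, against 443, 440.2 and 349 on those labelled wild-type. The difference was -0.59 ± 0.16 (limma adjusted p 0.246). Nhp2, which binds the RNA together with the synthase, read 699, 729.6 and 677 on the arrays labelled FoxO-null, against 896, 857 and 918 on those labelled wild-type. The groups were tight and well apart, at -0.34 ± 0.10 (limma adjusted p 0.289), and the second Nhp2 probe set gave -0.36 ± 0.11. Dkc1, the pseudouridine synthase dyskerin, read 260.2, 311 and 218 on the arrays labelled FoxO-null, against 449, 344 and 329 on those labelled wild-type. Its groups also stood apart, at -0.50 ± 0.16 (limma adjusted p 0.331), and its next probe set gave -0.49 ± 0.16. The weakest Dkc1 probe set overlapped between groups, at -0.26 ± 0.28. Nop10, the smallest protein of the particle, read 1277, 1320.4 and 1456 on the arrays labelled FoxO-null, against 1349, 1337 and 1451 on those labelled wild-type. Here the groups overlapped, at -0.031 ± 0.10, and the second Nop10 probe set stood at -0.005 ± 0.12.

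**Figure D3:**
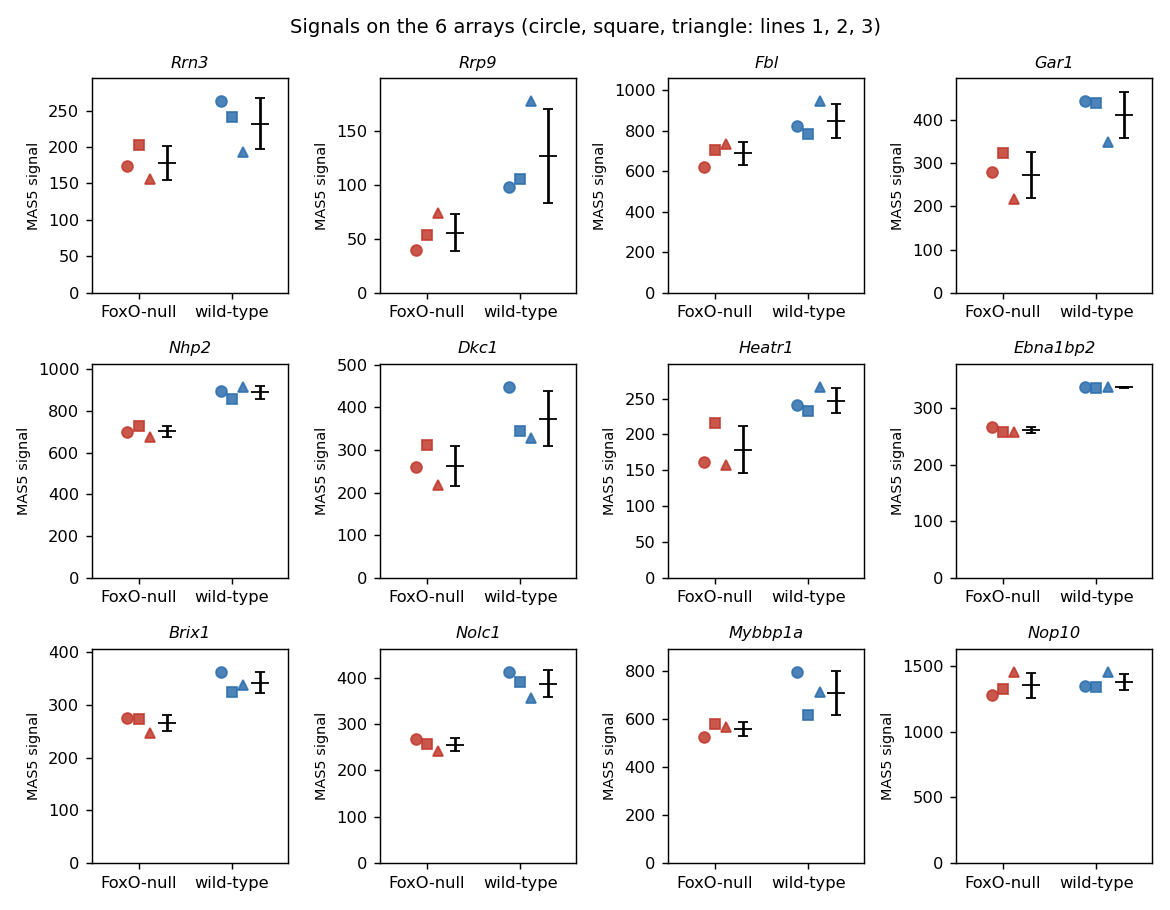
MAS5 signals (y axis, from 0, scale set for each gene) of 12 members on the 6 arrays; circles, squares and triangles are lines 1, 2 and 3 of each label, and bars show mean ± SD (n = 3). Of these, Rrn3 and Nop10 overlap between the groups and the other 10 do not.

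The small subunit processome held 4 of the 5 positive members beside 14 negative ones. Heatr1, a large helical-repeat protein that also promotes ribosomal DNA transcription, read 162, 216 and 157 on the arrays labelled FoxO-null, against 241, 233 and 267 on those labelled wild-type. The groups did not overlap, with a log2 difference of -0.47 ± 0.15 (limma adjusted p 0.332). Imp4, which joins the U3 RNA to the precursor together with Imp3 and Mphosph10, read 119.7, 108 and 92.9 on the arrays labelled FoxO-null, against 164, 129 and 158 on those labelled wild-type. These groups did not overlap either, at -0.47 ± 0.17 (limma adjusted p 0.374), but a second Imp4 probe set over background gave 0.27 ± 0.21 with the opposite sign. Utp20 read 149, 164 and 162 on the arrays labelled FoxO-null, against 205, 195 and 187 on those labelled wild-type. Its groups stood apart at -0.30 ± 0.14 (limma adjusted p 0.493, unadjusted 0.0511). Emg1, a methyltransferase of the small subunit RNA, read 835, 813 and 814 on the arrays labelled FoxO-null, against 952, 809.9 and 973 on those labelled wild-type. Its groups overlapped, at -0.15 ± 0.11 (limma adjusted p 0.689).

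Of the partners of Imp4, Imp3 was at -0.00013 ± 0.12 and Mphosph10 at 0.09 ± 0.16, both with overlap. The WD-repeat proteins Utp4, Utp15, Wdr43 and Wdr75, which act with Heatr1 in the early processome, were at -0.19, -0.19, -0.089 and -0.21, and only Wdr75 of these had groups that did not overlap. The WD-repeat protein Utp18 was at -0.25. Rrp12, an export factor with weak signal, was at -0.65 ± 0.33 with overlap (limma adjusted p 0.536). Bysl was at -0.16, Noc4l at -0.092 and Nob1, the nuclease that makes the final cut of the small subunit RNA, at -0.016. The positive members were the helicase gene Ddx10 at 0.25, Nop14 at 0.13, Mphosph10 and Rcl1 at 0.077.

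Besides Imp4, probe sets of Ddx10 disagreed in sign in this step. Those of Wdr43, Noc4l, Heatr1 and Wdr75 disagreed in whether the groups overlapped. The weaker probe sets of Heatr1, at -0.33 ± 0.31 and -0.64 ± 0.36, and of Wdr75, at -0.10 ± 0.25, overlapped between groups. For Ddx10 the probe set of highest signal read 129.8, 124 and 113 on the arrays labelled FoxO-null, against 101, 99.1 and 106 on those labelled wild-type, with the groups apart and a log2 difference of 0.25 ± 0.16. The other Ddx10 probe set read 96.6, 93.1 and 78.7 on the arrays labelled FoxO-null, against 105, 143 and 97.5 on those labelled wild-type, with the groups apart in the opposite direction, at -0.33 ± 0.20. For Wdr43 the chosen probe set overlapped between groups, while the second read 122, 166 and 115 on the arrays labelled FoxO-null, against 270.2, 204 and 201 on those labelled wild-type. That second probe set had no overlap and a difference of -0.72 ± 0.18 (limma adjusted p 0.33 over all probe sets). For Noc4l the chosen probe set and 2 others overlapped between groups, the 2 others at -0.19 ± 0.19 and -0.33 ± 0.25, while the last, at -0.64 ± 0.21, did not overlap. Wdr43 and Noc4l, and the weaker probe sets of Heatr1 and Wdr75, were singled out after their values were seen.

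All 16 large subunit factors had negative log2 differences, between -0.48 and -0.012. Ebna1bp2, a nucleolar scaffold of early large subunit assembly, read 267, 258 and 258 on the arrays labelled FoxO-null, against 338, 336 and 336 on those labelled wild-type. Replicates lay close together in both groups, with no overlap, and the difference was -0.36 ± 0.12 (limma adjusted p 0.314). A weaker Ebna1bp2 probe set stood at 0.34 ± 0.30 with groups apart in the opposite direction. Gtpbp4, a GTPase of the pre-large subunit, read 220.4, 193 and 176 on the arrays labelled FoxO-null, against 337, 264 and 234 on those labelled wild-type. The groups did not overlap, at -0.48 ± 0.16 (limma adjusted p 0.345). Its other probe sets overlapped between groups, at -0.27 ± 0.18 and -0.097 ± 0.24. Brix1, which helps fold the large subunit RNA, read 275, 274 and 247 on the arrays labelled FoxO-null, against 363, 325 and 339 on those labelled wild-type. It too stood apart, at -0.36 ± 0.12 (limma adjusted p 0.348), but its other, weaker probe set overlapped, at -0.21 ± 0.29. Rrs1, which helps load the small 5S RNP, read 368, 437 and 311 on the arrays labelled FoxO-null, against 576, 425 and 321 on those labelled wild-type. It overlapped widely, at -0.21 ± 0.20 (limma adjusted p 0.759).

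Bop1, Pes1 and Wdr12 form a complex needed to process the large subunit RNA. Bop1 stood apart between groups at -0.33 ± 0.13 (limma adjusted p 0.408, unadjusted 0.0249), and its partners, with overlapping groups, were at -0.20 for Pes1 and -0.22 for Wdr12. The GTPase gene Gnl3, known as nucleostemin for its level in stem cells, was at -0.22 ± 0.13 with overlap (limma adjusted p 0.585). The RNA methyltransferase gene Nop2 was at -0.10, the helicase genes Ddx18 and Ddx56 at -0.14 and -0.17, and Nle1 at -0.35. Nop16, Nip7, Noc2l and Noc3l lay between -0.16 and -0.012. Among these 16 factors 4 had groups that did not overlap with lower signals (7.93% of all genes) and 0 with higher (8.08%).

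Beside Nolc1, the abundant nucleolar proteins that serve several steps showed the same sign. Nucleolin, encoded by Ncl, a binder of ribosomal DNA chromatin and RNA, read 2800.0, 3068 and 3016 on the arrays labelled FoxO-null, against 3418, 3558 and 3503 on those labelled wild-type. The groups stood apart, at -0.24 ± 0.10 (limma adjusted p 0.449), and of the 5 Ncl probe sets 4 were negative and 1 was positive, at 0.22. Lyar read 243, 236 and 240.2 on the arrays labelled FoxO-null, against 323, 296 and 298 on those labelled wild-type. Its groups did not overlap, at -0.34 ± 0.12 (limma adjusted p 0.370). Mybbp1a, a nucleolar Myb-binding protein, read 525, 581 and 569 on the arrays labelled FoxO-null, against 798, 618 and 711 on those labelled wild-type. Its groups did not overlap and it differed by -0.33 ± 0.12 (limma adjusted p 0.376), and its second probe set by -0.46 ± 0.12. The helicase gene Ddx21 stood at -0.36 ± 0.19 with overlapping groups, and its second probe set at -0.44 ± 0.16 without overlap. Nucleophosmin, encoded by Npm1, was at -0.20 ± 0.12 with overlap.

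Probe sets that were not chosen give a further reading of the same RNA. The 56 members have 113 probe sets, and 49 of the 57 others passed the filter on low signals. Of these 49, 42 were negative, where 48.6% of all probe sets over the filter were, and their median log2 difference was -0.25. At an unadjusted limma p under 0.05, 9 were lower (background 4.29%) and 0 were higher (background 4.31%). In 12 the groups did not overlap with lower signals in the lines labelled FoxO-null (background 7.14%), and in 1, of Ebna1bp2, with higher signals (background 7.46%). Of 32 members with more than 1 probe set over background on all arrays, 6 had probe sets of opposite sign: Ddx10, Ebna1bp2, Imp4, Ncl, Nip7 and Polr1d. The chosen probe set of Nip7, a factor of large subunit assembly, read 209, 211 and 200.2 on the arrays labelled FoxO-null, against 234, 194 and 238 on those labelled wild-type, with overlap and a difference of -0.093 ± 0.13. The other Nip7 probe set read 78.0, 66.7 and 57.4 on the arrays labelled FoxO-null, against 61.8, 44.0 and 50.3 on those labelled wild-type, also with overlap, at 0.34 ± 0.24. The chosen probe sets of Polr1c, Fbl, Nop56, Gar1 and Nhp2 carry the manufacturer's suffix for probes shared by several transcripts, and those of Polr1d, Polr1e and Rrs1 the suffix for possible cross-hybridisation, so their signals may include related sequences.

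**Figure D4:**
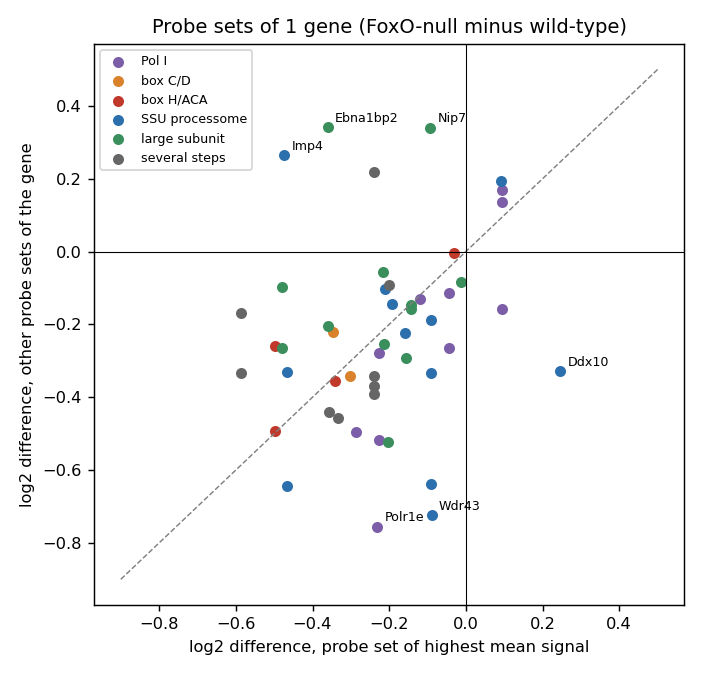
Log2 difference (lines labelled FoxO-null minus wild-type) of the chosen probe set of a member (x axis) against that of its other probe sets over the filter (y axis), 49 points coloured by step; the dashed line marks equal values. Most points lie in the lower left, and Imp4, Ebna1bp2, Nip7 and Ddx10 are among those with opposite signs.

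Leaving out each array in turn kept the sign in 39 negative members and in 3 positive ones, Polr1d, Rcl1 and Ddx10. Of the 18 members lower at an unadjusted limma p under 0.05, 7 stayed under it in all 6 fits with 1 array left out: Rrp9, Gar1, Nhp2, Heatr1, Ebna1bp2, Brix1 and Nolc1. These names follow from the count. The shares of all genes that kept their sign, or stayed under this p, in all 6 fits were not computed. The counts of 39, 3 and 7 therefore have no background beside them and are not read by step. The median of the members lay between -0.23 and -0.17 over the 6 fits, and no member passed over all genes in any of them.

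The other genes of the pathway leaned the same way. Of 129 other genes of the pathway on the list, 121 had a probe set of their own and all 121 were tested. They include 3 regulators, Myc, Max and Mycn, all with negative differences. Myc is counted among the lower genes and those without overlap given next. Negative log2 differences were found in 89, or 73.6% (48.2% of all genes tested), with a median of -0.14. At an unadjusted limma p under 0.05, 13 were lower (4.9% of all genes) and 0 higher (5.31%), and 0 passed when adjusted. The groups did not overlap in 28 with lower signals (7.93% of all genes) and in 2 with higher (8.08%). By step, 7 of 8 box C/D assembly genes, 30 of 42 small subunit genes, 32 of 42 large subunit genes and 14 of 16 RNA-trimming exosome genes were negative. The other genes listed with RNA polymerase I, which include subunits it shares with the other nuclear polymerases, had a median of the opposite sign, 0.11, with 2 of 8 negative. Whether the members and these genes differ was not tested, since the members were chosen with values of these arrays known.

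Among them, Ccdc86, a nucleolar protein gene, read 70.0, 72.3 and 59.1 on the arrays labelled FoxO-null, against 129, 102 and 112 on those labelled wild-type. The difference was -0.72 ± 0.19 (limma adjusted p 0.222). Pno1, a partner of Nob1 in the late small subunit, read 178, 217 and 177 on the arrays labelled FoxO-null, against 315, 245 and 261 on those labelled wild-type and differed by -0.51 ± 0.15 (limma adjusted p 0.280). Both genes had groups that did not overlap. The AAA ATPase gene Ruvbl1 and Pih1d1, which assemble box C/D particles, stood at -0.39 ± 0.14 and -0.34 ± 0.14, Wdr46 of the small subunit at -0.41 ± 0.13 and Wdr18 of the large subunit at -0.42 ± 0.14. The exosome genes Exosc1 and Exosc8 were at -0.34 ± 0.13 and -0.24 ± 0.11. Taf1d, of the selectivity factor, was at -0.41 ± 0.20, Polr2h, a subunit common to the nuclear polymerases, at -0.17 ± 0.13, and the H/ACA assembly genes Shq1 and Naf1 at -0.38 ± 0.61 and 0.0076 ± 0.19.

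**Figure D5:**
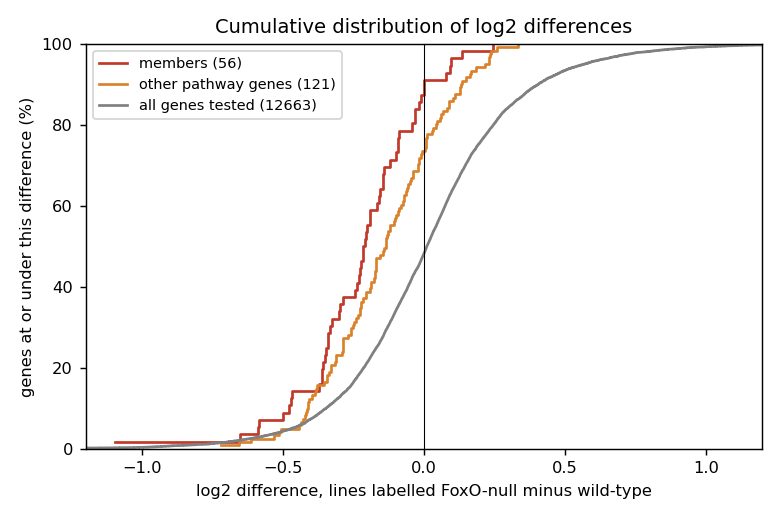
Share of genes at or under a given log2 difference (y axis, percent; x axis, lines labelled FoxO-null minus wild-type) for the 56 members, the 121 other pathway genes and the 12663 genes tested. The members' curve crosses 0 at 91.1%, that of the other pathway genes at 73.6% and that of all genes at 48.2%. The other pathway genes include the regulators Myc, Max and Mycn.

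Myc, counted above among the other genes of the pathway, read 231, 185 and 156 on the arrays labelled FoxO-null, against 325, 259.6 and 319 on those labelled wild-type. Its groups did not overlap, at -0.65 ± 0.16 (limma adjusted p 0.213). Its partner gene Max, at -0.44 ± 0.38, and its relative Mycn, at -0.53 ± 0.54, overlapped between groups. The part of Myc in the members' differences was not tested.

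Other transcripts differed between the same labels. All 23 measured cell division genes were negative, with a median of -0.41, and 19 of 23 were lower at an unadjusted limma p under 0.05 (4.9% of all genes). In the other direction (5.31% of all genes), 5 of 8 astrocyte, 5 of 8 oligodendrocyte lineage and 4 of 12 neural stem cell markers were higher at that p, and 1 oligodendrocyte lineage and 1 neural stem cell marker also passed when adjusted over all genes. The summed signal of the cell division genes was between 20811 and 22726 in the lines labelled FoxO-null and between 28299 and 29665 in those labelled wild-type. Mki67, a marker of cycling cells, read 1132, 1125 and 1339 on the arrays labelled FoxO-null, against 1549.6, 1362 and 1460.4 on those labelled wild-type. Astrocyte markers were positive in 7 of 8, with summed signals of 5025 to 5871 in the lines labelled FoxO-null and 3391 to 4019 in those labelled wild-type. Oligodendrocyte lineage markers were positive in 6 of 8, with sums of 17159 to 17909.9 in the lines labelled FoxO-null and 13865 to 15417 in those labelled wild-type. Neural stem cell markers were positive in 9 of 12, with sums of 32889.5 to 36490 in the lines labelled FoxO-null and 26095 to 34445 in those labelled wild-type, and Sox2 and Nes differed by 0.10 ± 0.13 and -0.36 ± 0.17. No marker of these 4 lists was at or under background on all arrays. In the lines labelled FoxO-null and then in those labelled wild-type, the summed signals of neuron markers were 1466 to 1500.0 and 1408 to 1755, of microglia markers 106 to 120.4 and 89.0 to 123, of endothelial or mural markers 173 to 253 and 167 to 227, and of fibroblast markers 89.2 to 147 and 77.7 to 175, so the sums of all 4 overlapped. Of 8 neuron markers, 5 were negative and 1 was lower at an unadjusted limma p under 0.05 (4.9% of all genes). In 2 of 8 the groups did not overlap, with lower signals in the lines labelled FoxO-null (7.93% of all genes). The control probe set for the 5′ end of 18S ribosomal RNA read 211 on wild-type 1, the array on which the members stood highest, and between 23.5 and 38.9 on the others; the median of the members was -0.17 without that array. The part of these transcripts and of this control in the members' differences was not tested.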

How the data were processed

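The 6 arrays hold 45101 probe sets, of which 34945 are paired with 1 gene in the platform annotation, 932 with several and 9160 with none (64 more are controls). The deposited values are linear signal intensities made by the authors with MAS5, per the submitters' processing notes, and their version and further steps are not given in the sources used here. On each array the mean after trimming 2% of values at either end is 100, and array medians ran from 25.5 to 32.8; array data carry no counts, so the number of arrays limits the precision. Each gene was read through its single-gene probe set of highest mean signal. Genes with a mean under the 40th percentile, a signal of 16.2, were left out, which left 12663. Values were taken as log2(signal + 5.94), the added 20th percentile understating the differences of weak genes, and fitted with limma 3.58.1 (R 4.3.3), with an intensity trend and no covariate, 3 lines against 3, two-sided, with Benjamini-Hochberg adjustment over all genes tested and a threshold of 0.05. An exact permutation test of 3 against 3 cannot go below 0.1. The fit was tested on simulated data, in which 47.9% of 2-fold changes were recovered at a limma adjusted p under 0.05. Most members differed by less than 2-fold, a size that was not simulated, so this share does not apply to them. Background on an array is the highest signal of 27 Bacillus subtilis control probe sets.

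The members and the gene lists were chosen with earlier results of these data known, so list medians and counts are described without a test. Values on each array are given, in each step, for the 3 members of smallest p and the member of highest signal, for all members of the 4-gene steps and for members with probe sets of opposite sign, with exceptions said to be chosen later; of the other pathway genes, the 2 of smallest p in each step are named. Members described beyond these, Wdr43 aside, appear with their differences only. Alternatives were leaving out each array, other offsets, filters and normalizations, the mean of all probe sets, no intensity trend and the replicate number as a block. They were also applied, after seeing the data, to the other pathway genes, the other probe sets and the count of higher members without overlap.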

Additional observations from a re-analysis of the deposited data

How the results depend on the processing

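Under 15 alternatives the count of members with a negative log2 difference stayed between 46 and 51, the count past the limma adjusted threshold stayed at 0, and no member was higher at an unadjusted p under 0.05. The count lower at that p ranged from 9 to 17 when 1 array was left out (9 without wild-type 1 and 11 without FoxO-null 1) and was 12 without the intensity trend. Of all genes, between 3.27% and 4.97% were lower when 1 array was left out and 3.83% without the intensity trend. The number of genes past the adjusted threshold, 5, ranged from 0 to 11 when 1 array was left out, the 11 without wild-type 3; it was 1 with an offset of 1, without the filter, with quantile normalization or with the mean of all probe sets, and 0 with median centring or without the intensity trend. The median of the small subunit factors ranged from -0.20 to -0.089 when 1 array was left out, at -0.089 without FoxO-null 3. Median centring moved the median of all genes to -0.058, that of the members to -0.28, of the RNA polymerase I genes to -0.24 and of the small subunit factors to -0.22.

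Of 1091 alternative values, 29 turned the sign of a single member, in 17 members, 24 of them by leaving out 1 array. The mean of all probe sets turned Ddx10 to -0.042, Ebna1bp2 to 0.27 and Nip7 to 0.12, and quantile normalization turned Imp3 to 0.015 and Nop58 to 0.019. With 1 array left out, the values ranged from -0.055 to 0.066 for Imp3, -0.028 to 0.17 for Mphosph10, -0.11 to 0.12 for Nob1, -0.32 to 0.092 for Noc2l, -0.10 to 0.099 for Noc3l, -0.20 to 0.057 for Noc4l, -0.086 to 0.0087 for Nop10, -0.16 to 0.42 for Nop14, -0.26 to 0.045 for Nop16, -0.20 to 0.039 for Nop2, -0.13 to 0.19 for Nop58, -0.15 to 0.066 for Polr1b, -0.20 to 0.035 for Tcof1 and -0.20 to 0.079 for Wdr43. The cause of these turns was not tested.

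Lines of the same number in the 2 groups had deviations from their group means that correlated at 0.023, 0.092 and 0.12. For lines of different numbers the correlations lay between -0.15 and 0.073, the highest being that of wild-type 1 with FoxO-null 2. The labels do not say whether lines of the same number belong together, and this was not tested. With the replicate number as a block, 17 members were lower at an unadjusted limma p under 0.05 (5.33% of all genes). In that fit 0 members passed when adjusted, and 6 genes passed over the whole table.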
